A study of Mus musculus with 3 samples.

Results

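The regions described here are wide stretches of H3K4me1 in old hematopoietic stem cells that lacked a called H3K27ac region, the usual signature of a primed enhancer. They were chosen by the deposited peak positions: an H3K4me1 region on chromosomes 1 to 19, at least 2000 bp wide, that shared no bp with any H3K27ac region. The rule found 4511 regions among 21353 autosomal H3K4me1 regions of that width, 151952 autosomal H3K4me1 regions of any width and 155027 on all chromosomes. Both width and absence of H3K27ac are therefore fixed by the choice, and neither is a finding. They are called H3K4me1-only wide regions below, where "only" means that no H3K27ac region was called on them.

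Enhancers are marked in steps. H3K4me1, written mainly by the methyltransferases MLL3 and MLL4, can be in place before an enhancer acts, and H3K27ac, written by p300 and CBP, accompanies enhancer activity. An element with H3K4me1 and without H3K27ac is called primed, or poised where H3K27me3 is also present. H3K27me3 was not analysed here, so primed and poised elements cannot be told apart. In blood stem cells such elements are known near genes that act later in the lineages. H3K4me1 also flanks active promoters, whose centres carry H3K4me3 and H3K27ac, so an H3K4me1 region beside H3K27ac can be a promoter shoulder and not a separate element.

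Both marks were profiled by chromatin immunoprecipitation sequencing in bone marrow stem cells sorted as SP-KSL-CD150+ from C57BL/6 mice that were 24 months old. H3K27ac was pulled down with antibody Abcam ab4729 and H3K4me1 with Abcam ab8895. A single library per mark, labelled a technical replicate of biological replicate 1, was used. Without replicates the spread between samples is unknown, and p-values are not reported. The intervals below are exact 95% binomial intervals over regions. Only counting error is covered, since each mark has a single library and adjacent regions are not separate samples. How duplicate reads were handled is not given. Coordinates are those of mouse build mm9, counted from 1. No gene or base sequence is given, because no mm9 genome or annotation was used here.

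The H3K27ac library set the limit of what "lacking" can mean. Its genome-wide background was 2.38 reads and its weakest called summit held 8 reads, which is 2.66-fold at that background. For H3K4me1 the background was 3.75 reads and the weakest summit held 10 reads. Acetylation weaker than the H3K27ac limit would leave a region in the H3K4me1-only class. In reads, that limit is higher where the background around a region is raised. Among the 16842 wide autosomal regions with H3K27ac, the strongest acetylated summit inside had a median of 19 reads, and in 859 of them (5.10%, interval 4.77 to 5.44%) it had 10 reads or fewer.

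With all deposited H3K27ac regions counted, H3K4me1-only wide regions were a minority of wide regions. They made up 21.1% of the 21353 (interval 20.6 to 21.7%), whereas 66% of autosomal H3K4me1 regions of all widths (100310 of 151952) lacked H3K27ac. They were 4.50% of all autosomal regions without H3K27ac. Being the widest of these by the rule, they held 17.4% of the H3K4me1 length in that class, 12.46 Mb in all. The share without H3K27ac was 88.8% below 500 bp and 49.5% from 1000 to 2000 bp. It went on down to 31.7% from 2000 to 2500 bp (2285 of 7206), 25.1% from 2500 to 3000 bp, 17.3% from 3000 to 4000 bp, 10.8% from 4000 to 5000 bp and 3.93% at 5000 bp or more (124 of 3155, interval 3.28 to 4.67%). A wider region meets another mark more easily by position alone, and these shares do not correct for that. The count and the minority rested on the H3K27ac threshold: with H3K27ac regions limited to a −log10 q of at least 5, 8851 wide regions (41.5%) lacked it, and at 10 a majority did (13741, 64.4%). The width limit moved the count as well, to 9513 at 1500 bp and 1134 at 3000 bp.

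**Figure D1:**
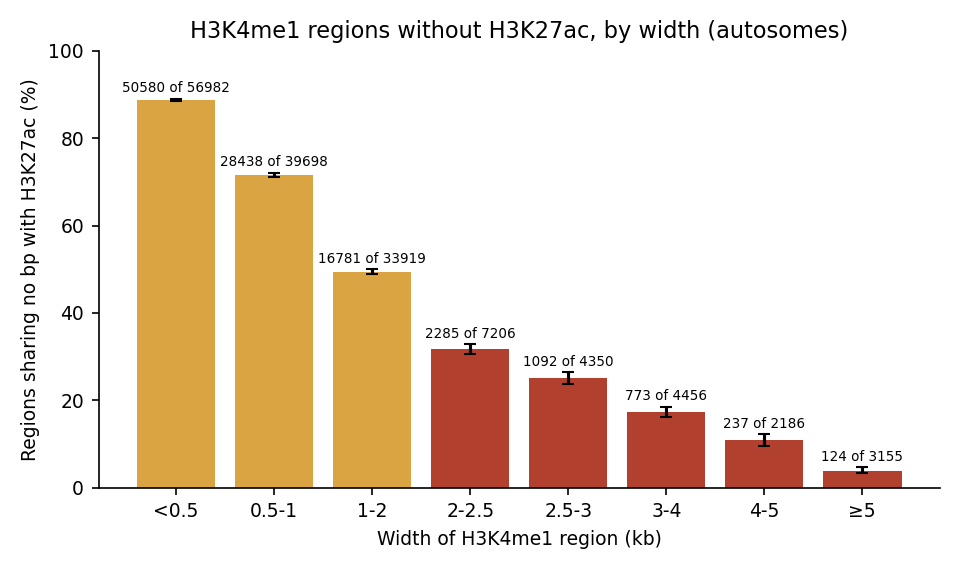
Share of autosomal H3K4me1 regions that shared no bp with an H3K27ac region (y axis, percent) in 8 classes of width (x axis, kb), with the number of regions above each bar and exact 95% binomial intervals as error bars. Red bars are the widths at or above the 2000 bp limit, where the share went from 31.7% to 3.93%.

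The regions were mostly short for their class and well above the calling limit of H3K4me1. Their widths ran from 2000 to 11007 bp with a median of 2487 bp (quartiles 2204 and 3005 bp), and 2285 of them (50.7%) were under 2500 bp. The wide regions with H3K27ac had a median width of 3054 bp. The H3K4me1 summit of the H3K4me1-only wide regions ran from 2.31-fold to 13.7-fold over background, by the authors' own fold, with a median of 6.47-fold (quartiles 5.41 and 7.58). At the summit lay a median of 32 reads (lowest 16, highest 64). The regions narrower than 2000 bp without H3K27ac (95799) had a median of 3.58-fold and 17 reads. Among regions without H3K27ac the summit rose with width, from a median of 3.16-fold below 500 bp to 5.07-fold from 1000 to 2000 bp. The width limit therefore favours higher summits, and this contrast is not a finding about the class. Of the H3K4me1-only wide regions, 93 reached 10-fold or more, and 227 stayed under 4-fold. Width and fold went together only loosely among them, over widths that the rule cut off at 2000 bp. Spearman's rho was 0.23 over the 4511 regions, which share 1 library and so are no independent samples, and it was 0.39 over the wide regions with H3K27ac.

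Within each width class, the H3K4me1 summit was lower where H3K27ac was lacking. From 2000 to 2500 bp the median was 6.11-fold without H3K27ac (quartiles 5.13 and 7.16) and 6.71-fold with it (quartiles 5.60 and 7.79). From 3000 to 4000 bp it was 6.90-fold against 7.58-fold, and at 5000 bp or more 7.58-fold (quartiles 6.57 and 8.42) against 8.85-fold (quartiles 7.43 and 10.1). The ratio of the medians lay between 0.910 and 0.934 in the classes from 2000 to 5000 bp. It was 0.857 at 5000 bp or more and 0.878 over all wide regions. The class of 5000 bp or more has no upper limit, so width was not matched in it. Its widest region had 11007 bp without H3K27ac and 42658 bp with it. In reads, the medians were 31 and 33 from 2000 to 2500 bp and 36 and 44 at 5000 bp or more. The quartile ranges overlapped in every class, and most H3K4me1-only wide regions had a fold that was also common among acetylated ones.

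**Figure D2:**
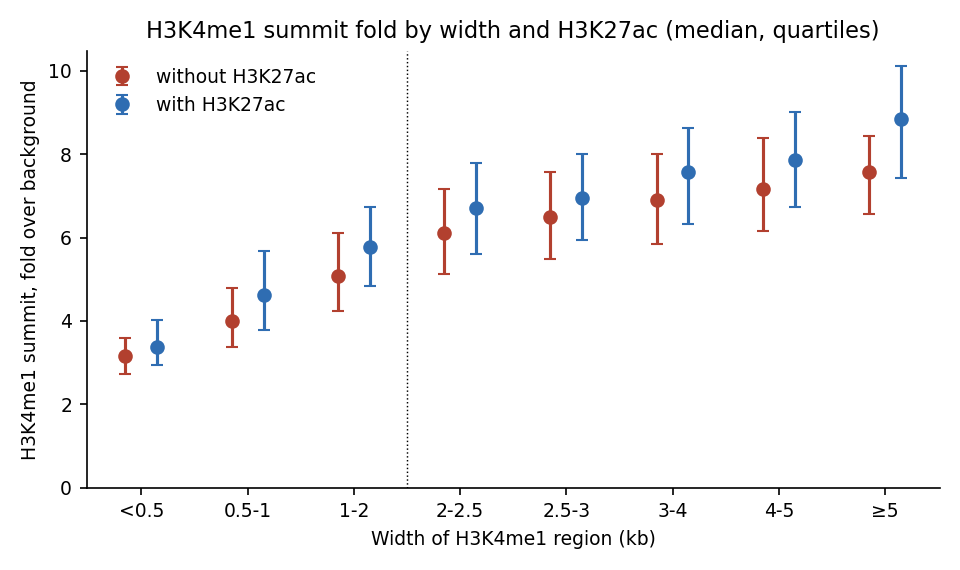
Median H3K4me1 summit fold over background (y axis; bars span the quartiles) by width class (x axis, kb) for autosomal regions without H3K27ac in red and with it in blue. To the right of the dotted line, at 2000 bp or more, each red median lies below the blue one, and the quartile ranges overlap.

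The share without H3K27ac also differed with H3K4me1 strength within classes of width. From 2000 to 2500 bp it was 42.6% below 5-fold (496 of 1165, interval 39.7 to 45.5%), 30.9% from 6-fold to 7-fold and 18.9% at 10-fold or more (23 of 122, interval 12.3 to 26.9%). From 3000 to 4000 bp the share was 26.8% below 5-fold and 8.10% at 10-fold or more (23 of 284). At 5000 bp or more it was 7.61% below 5-fold (7 of 92) and 1.35% at 10-fold or more (11 of 815, interval 0.676 to 2.40%). In this class it stayed between 7.10% and 8.26% up to 8-fold and was 2.49% from 8-fold to 10-fold. The class has no upper width limit, so width was not held in it. From 2500 to 3000 bp the share was 33.3% below 5-fold and 33.8% from 5-fold to 6-fold. It was 19.0% from 7-fold to 8-fold and 18.7% at 10-fold or more, so the fall was not even. Strong and wide H3K4me1 without H3K27ac was rare but present.

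The widest H3K4me1-only regions came in more than 1 kind of setting. The 2 that exceeded 10 kb were far from acetylation. The first lay on chromosome 2 from 105506740 to 105517746 (11007 bp, 7.58-fold, 35 summit reads), and its nearest H3K27ac region was 26.0 kb away with 9 reads. The second lay on chromosome 19 from 25678326 to 25688455 (10130 bp, 7.37-fold), 99.3 kb from an H3K27ac region that also had 9 reads. In both, the summit sat near the low-coordinate end, at 10.9% and 12.9% of the width.

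Several of the next widest lay against strong acetylation instead. The region on chromosome 1 from 180256081 to 180265575 (9495 bp, 11.2-fold) ended 279 bp from an H3K27ac region of 24.5-fold and 82 reads. On chromosome 17 the region from 33888128 to 33895931 (7804 bp, 10.3-fold) ended 913 bp from an H3K27ac region of 31.0-fold, and the one from 87836770 to 87844413 (7644 bp, 7.55-fold) ended 566 bp from one of 25.7-fold. The region on chromosome 18 from 39640703 to 39648581 (7879 bp, 7.03-fold) was 27 bp from an H3K27ac region of 13.3-fold. These 4 had H3K27ac at their right end. The H3K4me1 summit lay at 87.1%, 84.1% and 79.3% of the width in the regions on chromosomes 1 and 17, toward the acetylated side, and at 33.8% in the one on chromosome 18.

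The other 4 of the 10 widest were near weaker acetylation. They lay on chromosome 8 from 73011058 to 73019843 (8786 bp, 8.42-fold, 9.38 kb from H3K27ac), chromosome 6 from 31359410 to 31368093 (8684 bp, 4.80 kb), chromosome 7 from 151959503 to 151967788 (8286 bp, 10.3-fold, 1.16 kb) and chromosome 6 from 121161680 to 121169739 (8060 bp, 10.95-fold, 0.265 kb). The H3K27ac regions nearest to these were between 3.39-fold and 5.32-fold.

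The strongest H3K4me1 summits without H3K27ac were not the most isolated ones. The highest, on chromosome 4 from 59881348 to 59884789, had 13.7-fold and 64 reads, and acetylated regions lay 3.78 kb to its left and 6.36 kb to its right. The second, on chromosome 14 from 65962956 to 65965506 (13.5-fold, 63 reads), had H3K27ac 11.8 kb to the left and 10.7 kb to the right, the latter at 10.3-fold. Chromosome 6 from 31359410 to 31368093, already named for its width, reached 12.6-fold and 59 reads. Chromosome 11 from 54027374 to 54029705 had the same fold and reads but no H3K27ac within 87.8 kb. On chromosome 8, the regions from 122787618 to 122790860 (12.4-fold, 58 reads) and from 122347325 to 122352761 (11.8-fold, 55 reads) lay in the same part of the chromosome, with H3K27ac at 8.79 and 4.61 kb. The rest of the first 10 lay on chromosome 7 from 151360902 to 151363331 (12.4-fold, H3K27ac at 13.5 kb), chromosome 2 from 25432695 to 25438862 (12.2-fold, 1.57 kb), chromosome 4 from 128918439 to 128920709 (12.0-fold, 4.51 kb) and chromosome 8 from 125929950 to 125937116 (11.8-fold, 24.6 kb). Of the 93 regions of 10-fold or more, 66 (71.0%, interval 60.6 to 79.9%) had H3K27ac within 12500 bp, close to the 72.8% of all H3K4me1-only wide regions.

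With all deposited H3K27ac regions counted, most H3K4me1-only wide regions were near acetylation. Their share was close to that of all autosomal H3K4me1 regions without H3K27ac, so nearness was not particular to them. The gap to the nearest H3K27ac region had a median of 4.57 kb (quartiles 1.40 and 14.0 kb). H3K27ac lay within 1 kb of 895 regions (19.8%), against 18.8% of narrower regions without H3K27ac and 32.6% of wide regions with it. It lay within 12500 bp of 3286 (72.8%, interval 71.5 to 74.1%). Over all autosomal H3K4me1 regions without H3K27ac the share within 12500 bp was 74.9% (75123 of 100310), and over positions taken every 10 kb along the autosomes it was 36.8%. Those positions are single points and not regions, and 2.24% of them stood at a gap of 0, so the measures are not alike. Narrower regions without H3K27ac had a median gap of 4.28 kb (quartiles 1.44 and 12.51 kb). Wide regions with H3K27ac had their next H3K27ac region outside at a median of 1.96 kb, and 90.1% had one within 12500 bp. By rank over the 4511 regions, neither fold nor width went with the gap, with a Spearman's rho of 0.028 and 0.017. The 124 regions of 5000 bp or more had a median gap of 6.94 kb, and 61.3% had H3K27ac within 12500 bp. From 2000 to 2500 bp the values were 4.515 kb and 74.0%. In the width classes between, the median gap ran from 3.99 to 5.04 kb. The gap depended on which H3K27ac regions were counted: with limits of 5 and 10 on the −log10 q of H3K27ac its median was 8.73 and 17.7 kb. At the limit of 10, 41.7% had H3K27ac within 12500 bp. The median was 2.13 kb when an overlap had to reach 50% of the shorter region.

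**Figure D3:**
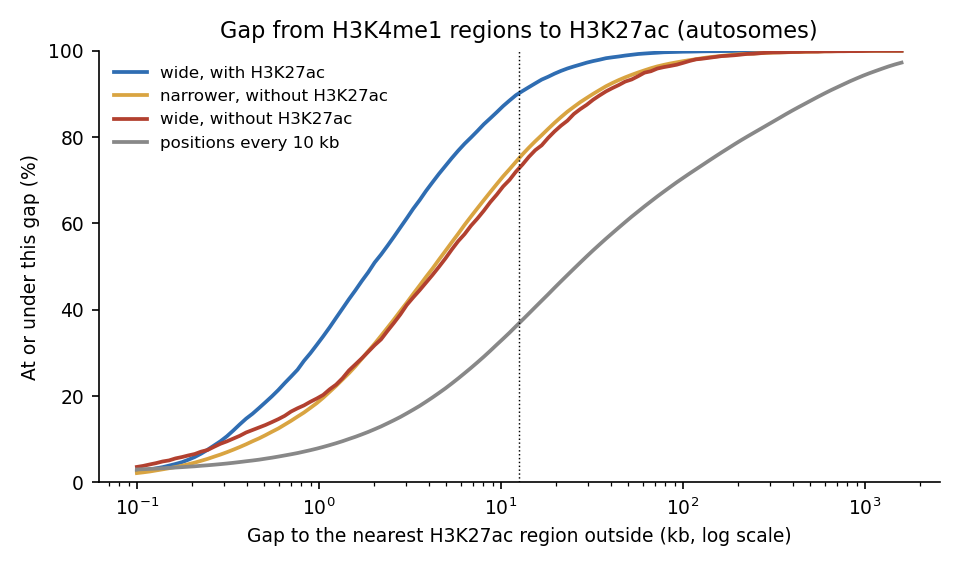
Cumulative share (y axis, percent) of autosomal H3K4me1 regions whose nearest H3K27ac region outside lies at or under a gap (x axis, kb, log scale), for 4511 wide regions without H3K27ac (red), 16842 wide regions with it (blue), 95799 narrower regions without it (yellow) and positions every 10 kb (grey). At the dotted line of 12500 bp the curves stand at 72.8%, 90.1%, 74.99% and 36.8%.

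Acetylation flanked 1552 of the regions (34.4%) within 12500 bp on both sides, 1734 (38.4%) on 1 side and 1225 (27.2%) on neither side. The shares were 34.3%, 40.7% and 25.01% for narrower regions without H3K27ac and 56.3%, 33.8% and 9.85% for wide regions with it. The median H3K4me1 fold was 6.33, 6.52 and 6.53 in these 3 settings, with a median of 32 reads in each, and the quartile ranges overlapped.

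Regions that nearly touched H3K27ac often stood beside strong acetylation. Within 0.5 kb of H3K27ac lay 588 H3K4me1-only wide regions. For 195 of them (33.2%, interval 29.4 to 37.1%) that H3K27ac region was of 10-fold or more, against 7.75% of all autosomal H3K27ac regions (7164 of 92455). From 0.5 to 2 kb the share was 9.94% (83 of 835), and from 2 to 5 kb 9.83%. The same share within 0.5 kb was 12.2% for narrower regions without H3K27ac and 14.4% for wide regions with it. For the latter, only the nearest H3K27ac region outside was taken, and the H3K27ac that they overlap was left out. The neighbouring H3K27ac region had a median width of 617.5 bp within 0.5 kb and 338 bp from 0.5 to 2 kb.

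In the same regions the H3K4me1 summit leaned toward the acetylated side. Within 0.5 kb, the summit lay in the 33.3% of the width that faced H3K27ac in 260 of 588 regions (44.2%, interval 40.2 to 48.3%). In the 6 classes of larger gap this share ran from 23.7% at 2 to 5 kb (219 of 926, interval 20.9 to 26.5%) to 30.3% at 50 to 100 kb (57 of 188, interval 23.8 to 37.4%), and it was 27.4% at 0.5 to 2 kb and 29.9% beyond 100 kb. Beside H3K27ac of 10-fold or more it was 57.9% (113 of 195, interval 50.7 to 65.0%), and beside weaker H3K27ac within 0.5 kb 37.4% (147 of 393, interval 32.6 to 42.4%). Within 0.5 kb, narrower regions without H3K27ac gave 31.3% and wide regions with H3K27ac, measured toward the next one outside, 31.1%. The median H3K4me1 fold was 6.36 beside strong acetylation (quartiles 5.39 and 7.58) and 6.53 beside weaker acetylation (quartiles 5.35 and 7.67). The local background, the peak caller's estimate of reads without enrichment, was raised by more than 5% above its genome-wide level at 53.3% of the summits beside strong acetylation and at 43.0% beside weaker acetylation, and its part in the result was not tested.

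Raised local background was otherwise about as common as elsewhere. It was found at 1818 H3K4me1-only wide summits (40.3%, interval 38.9 to 41.7%), at 40.2% of wide summits with H3K27ac and at 37.4% of all autosomal H3K4me1 summits (56791 of 151952). By gap to H3K27ac, its share was 46.4% within 0.5 kb and 28.3% beyond 100 kb.

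Both marks were denser around H3K4me1-only wide regions than over the autosomes as a whole, and less dense than around acetylated wide regions. From 1 to 5 kb beyond the edges, H3K27ac regions covered 5.99% of the flanks, against 12.7% around wide regions with H3K27ac, 5.98% around narrower regions without it and 2.24% of the autosomes. H3K4me1 regions covered 25.8% of the same flanks, against 34.4%, 21.1% and 6.95%. From 20 to 100 kb the H3K27ac coverage was 4.69%, 6.83% and 4.70% in the 3 classes. By the rule, only wide regions with H3K27ac can have an H3K27ac region that reaches over their edge into the flank. This adds to their side of the contrast, and how far out it does so was not measured. In the first kb coverage was 18.4% against 4.71%, and from 1 to 1.5 kb it was 16.5% against 5.92%.

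**Figure D4:**
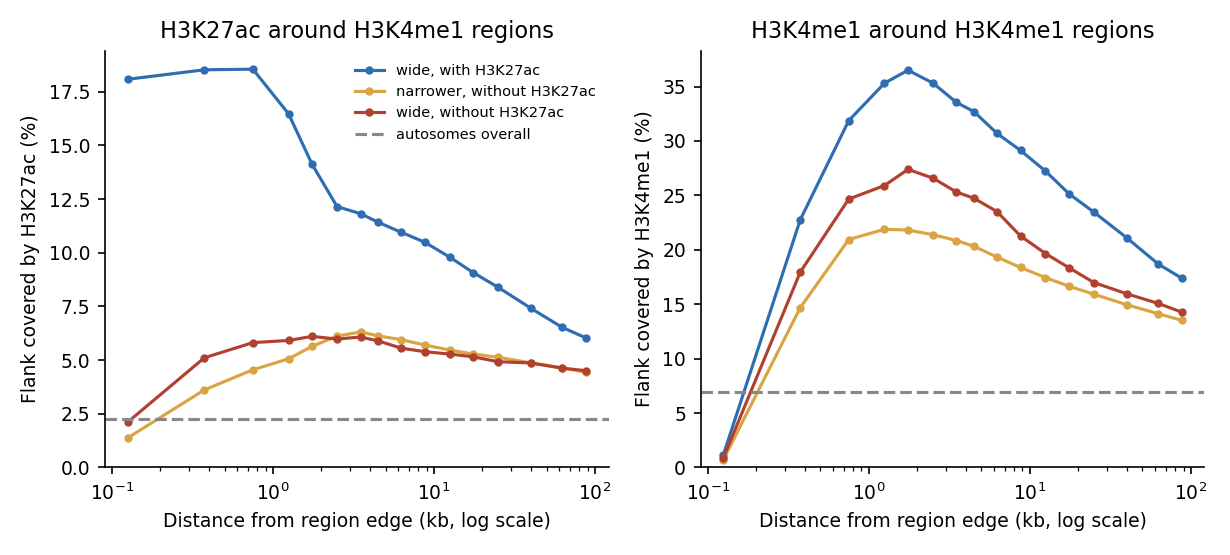
Share of the flanks covered by H3K27ac regions (left, percent) and by H3K4me1 regions (right, percent) against distance from the edge of the H3K4me1 region (x axis, kb, log scale), for wide regions without H3K27ac (red), wide regions with it (blue) and narrower regions without it (yellow). The grey dashed lines are the autosomal coverage of 2.24% and 6.95%, and the red and yellow H3K27ac curves run close together beyond 2 kb.

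Acetylated neighbours were less frequent beside H3K4me1-only wide regions than beside H3K4me1 regions in general. The H3K4me1 region nearest to an H3K4me1-only wide region carried H3K27ac in 25.01% of cases (1128 of 4511, interval 23.7 to 26.3%). This share was 43.7% next to wide regions with H3K27ac (7361 of 16842), 30.8% next to narrower regions without it and 35.9% over all autosomal H3K4me1 regions. Where the nearest region was itself 2000 bp or wider, it carried H3K27ac in 434 of 688 cases (63.1%), against 87.4% next to wide regions with H3K27ac and 79.6% over all autosomal regions. Among wide regions alone, the next one along the chromosome lacked H3K27ac after 1369 of 4507 H3K4me1-only wide regions (30.4%, interval 29.0 to 31.7%) and after 3136 of 16827 with H3K27ac (18.6%, interval 18.1 to 19.2%). Of 3142 uninterrupted runs of H3K4me1-only wide regions, 2249 were single regions, 309 held 3 or more and 32 held 5 or more.

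The longest runs held 8 wide regions in a row without H3K27ac. They are named here after their values were seen. A run on chromosome 5 from 66772763 to 67190522 spanned 417.8 kb. Its 8 wide regions were 2022 to 3679 bp wide at 4.59-fold to 9.06-fold, with 50 H3K4me1 and 7 H3K27ac regions in the span. The other, on chromosome 9 from 88414286 to 89980732, spanned 1566 kb with 48 H3K4me1 and 12 H3K27ac regions. A run of 7 lay on chromosome 1 from 74817268 to 74999045, where 181.8 kb held 27 H3K4me1 regions and 2 H3K27ac regions. On chromosome 11 from 103993084 to 104261592, a run of 7 in 268.5 kb contained 26 H3K4me1 regions and 1 H3K27ac region. A further run of 7 on chromosome 13 from 34438363 to 36232253 was spread over 1794 kb and lay among many acetylated regions, with 127 H3K4me1 and 65 H3K27ac regions in its span.

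The H3K4me1-only wide regions were spread over the genome and gathered where wide H3K4me1 was common. They occurred in 1508 of the 2262 autosomal windows of 1 Mb that held either mark. Of these, 453 windows held 1 and 16 held 10 or more. Across the 2262 windows their number went with the number of wide regions with H3K27ac (Pearson r 0.586, Spearman rho 0.660), where windows share the same libraries and are not replicates. Their number also went with the number of H3K27ac regions (Spearman rho 0.669). The 70 windows with under 5 H3K27ac regions held 56 of them, and the 331 windows with 80 or more held 1333. Unlike their number, their share of the wide regions was lower where H3K27ac regions were many. It was 60.9% in windows with under 5 H3K27ac regions (56 of 92, interval 50.1 to 70.9%), 27.4% in windows with 20 to 40, and 15.5% in windows with 80 or more (1333 of 8618, interval 14.7 to 16.2%). The rule itself ties this share to the density of H3K27ac.

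The window with most of them lay on chromosome 8 from 125000001 to 126000000, with 16 among 48 wide regions. Their summits ran from 3.47-fold to 11.8-fold with a median of 7.84-fold, their median width was 2886 bp, and their gaps to H3K27ac ran from 0.440 to 36.7 kb. In this window 124 H3K27ac regions covered 8.84% of the length. From 125239266 to 125276766 lay 4 of the 16, from 2251 to 6480 bp wide and from 8.11-fold to 10.6-fold, in a stretch right of a block of acetylated wide regions. The 7167 bp region at the far end of the window, from 125929950 to 125937116, is one of the 10 strongest.

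**Figure D5:**
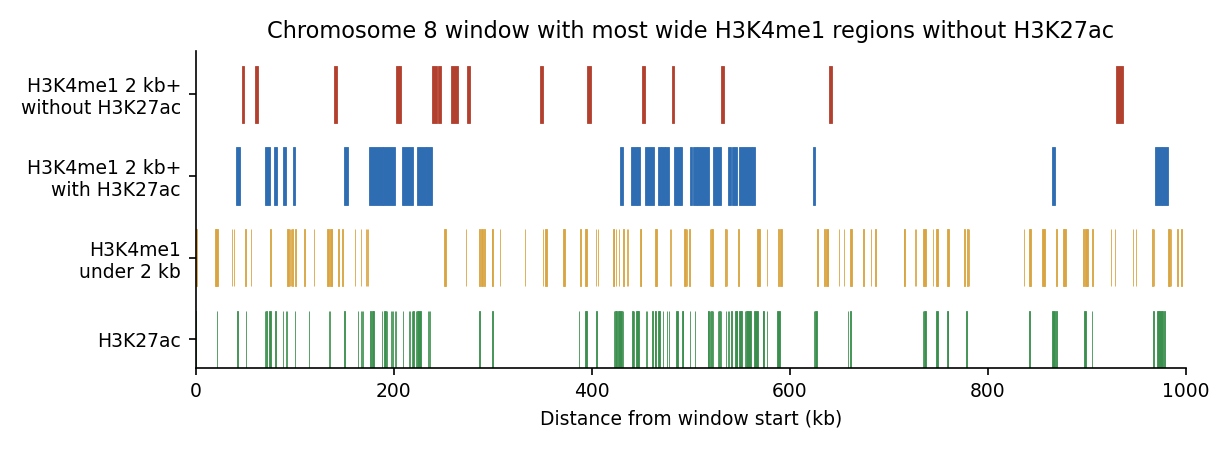
Positions of H3K27ac and H3K4me1 regions in the chromosome 8 window with most H3K4me1-only wide regions (x axis, distance from the window start in kb), with 1 row for each class and each region drawn at its width with a thin outline. The 16 H3K4me1-only wide regions, in red, lie among and beside blocks of wide acetylated regions in blue.

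The next windows differed in their acetylation. Chromosome 17 from 27000001 to 28000000 held 13 among 41 wide regions and 133 H3K27ac regions. Chromosome 4 from 11000001 to 12000000 held 13 among 23, with 47 H3K27ac regions and a median gap of 12.3 kb. Chromosome 4 from 117000001 to 118000000 held 12 among 19 (63.2%), with 68 H3K27ac regions over 2.83% of the window. Chromosome 6 from 72000001 to 73000000 held 11 among 35, with 107 H3K27ac regions.

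By chromosome, the share of wide regions without H3K27ac ran from 17.9% on chromosome 16 (133 of 742, interval 15.2 to 20.9%) to 25.3% on chromosome 9 (293 of 1158, interval 22.8 to 27.9%). The other 17 autosomes lay between 19.2% and 23.2%. The median fold lay between 6.11 and 6.73 on every autosome. Per Mb, the regions numbered from 1.31 on chromosome 14 to 2.89 on chromosome 11.

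A small class was isolated from acetylation. No H3K27ac region lay within 100 kb of 127 of the regions (2.82%), on all 19 autosomes, with 17 on chromosome 12. Their median width was 2571 bp and their median fold 6.32 (quartiles 5.48 and 6.95), against 2487 bp and 6.47 for all H3K4me1-only wide regions. Among narrower regions without H3K27ac 2.42% were as isolated, and among single positions every 10 kb, an unlike measure, 29.5%. The 5 farthest lay on chromosome 3 from 13471807 to 13473976 (1059 kb from H3K27ac, 6.32-fold), chromosome 15 from 18748013 to 18750388 (1036 kb, 3.47-fold), chromosome 3 from 45182644 to 45185794 (988.6 kb, 7.58-fold, 3151 bp), chromosome 14 from 40284783 to 40287455 (938.0 kb, 6.95-fold) and chromosome 7 from 64845662 to 64847793 (787.0 kb, 6.32-fold). Their summits held 22 to 35 reads, within the range of the class.

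At the edges of the rule, values just inside and just outside were close. The 5 narrowest H3K4me1-only wide regions were 2000 to 2001 bp wide with 4.63-fold to 7.16-fold. The 5 widest that missed the width limit were all 1999 bp wide, with 5.74-fold to 7.58-fold. The 606 regions from 2000 to under 2100 bp had a median of 5.90-fold and the 711 regions without H3K27ac from 1900 to under 2000 bp 5.97-fold. At the limit of overlap, 162 H3K4me1-only wide regions had H3K27ac within 100 bp (median 6.23-fold), and 205 wide regions shared only 1 to 100 bp with it (median 6.32-fold).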

How the data were processed

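The 2 deposited peak lists hold peaks called on 1 library each. The submitters' processing notes name MACS2 2.0.10.20131216, Bowtie2 2.0.6 and mm9. Caller options, control and duplicate handling are not given in the sources used here. Of the values, the deposited ratio is the fold of the summit over local background. Also deposited are −log10 p and −log10 q of each summit (lowest −log10 q 1.30 and 1.31), and the deposited score, −log10 q times 10, was not used.

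Summit reads and local background were solved from fold and −log10 p, taking fold as (reads + 1)/(background + 1) and p as a Poisson tail. Whole reads matched all 93413 H3K27ac and 155027 H3K4me1 summits within 0.001. Gaps are bp between region ends, "within" includes the limit, and shares have Clopper-Pearson 95% intervals. Interval functions and the recovery of reads were tested on simulated data. The regions and comparisons were chosen with earlier results of these data known. Regions named are the 10 widest, 10 strongest, 5 farthest from H3K27ac, 5 fullest 1 Mb windows and the 5 on each side of the width limit. The runs, flanks and summit positions were added later. The input library was not analysed here. Computation used scipy 1.17.1, pandas 2.3.3 and numpy 2.4.6 under Python 3.11.15, with plots by matplotlib 3.10.9. Alternatives changed the width limit, the q thresholds, the overlap rule, joining and the treatment of local background.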

Additional observations from a re-analysis of the deposited data

Results flagged for a closer look

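Chromosomes X and Y lie outside the rule that chose the regions, and regions of the same kind were found there. Of 100 H3K4me1 regions of 2000 bp or more, all on chromosome X, 49 shared no bp with H3K27ac (49.0%, interval 38.9 to 59.2%), against 21.1% on the autosomes. They had a median of 5.05-fold, a median width of 2425 bp and a median gap of 5.22 kb to H3K27ac. The difference from the autosomes was not tested.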

How the results depend on the processing

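As reported, 4511 regions were 21.1% of wide regions, the ratio of median fold without over with H3K27ac was 0.878, the median gap to H3K27ac was 4.57 kb and 72.8% had H3K27ac within 12500 bp. Of 55 alternative values, 21 stayed within the counting interval (or, for numbers, within a factor of 1.5) and 34 moved. The ratio of fold is 1 of the 5 values under each alternative, and it was 0.902 or lower in all of them. A width of at least 1500 bp gave 9513 regions and 28.3%, and 3000 bp gave 1134, 11.6% and 71.1% near H3K27ac. H3K27ac limited to a −log10 q of at least 5 gave 8851 regions, 41.5%, a gap of 8.73 kb and 58.9% near, and at least 10 gave 13741, 64.4%, a ratio of 0.891, 17.7 kb and 41.7%. Fewer H3K27ac regions by construction leave more regions without one. H3K4me1 at a −log10 q of at least 10 gave 19.6% and a ratio of 0.902. An overlap of 50% of the shorter region gave 28.5%, 2.13 kb and 79.8%, with regions that shared less counted at a gap of 0. Counting H3K27ac within 1 kb as overlap gave 16.9%, 6.99 kb and 66.1%. H3K4me1 joined over 1 kb gave 7000 regions, 23.9%, a ratio of 0.848, 6.74 kb and 67.1%. Leaving raised local background out of both lists gave 29.5%, 0.895, 5.41 kb and 70.3%. Leaving it out of H3K4me1 alone, a setting chosen after seeing the data, gave 2693 regions, 5.35 kb and 70.3%, and the share of wide regions was 21.1%. Including chromosome X, also chosen later, moved none of the 5 values. By construction, the width limits and overlap rules also change which regions are counted. Counting H3K27ac within 1 kb as overlap leaves only gaps over 1 kb. Leaving raised local background out of both lists removes H3K27ac regions too. For the other changes the cause was not tested. The planned comparisons with motifs, gene starts and gene lists were not run, because no mm9 genome or annotation was used here. No paired analysis was possible because there is a single library of H3K27ac and of H3K4me1. The H3K27ac calling limit bounds the class. No H3K27ac summit under 8 reads was called, and more reads are needed where local background is raised. Sequencing depth was not measured or varied.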
